A study of Mus musculus with 4 samples.

Results

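Fam19a5, AF529169, Npnt, Adarb1 and Plk2 are 5 mouse genes that were chosen by their fold changes, because their messenger RNA was lower in tumour-associated macrophages from the MK-8931 group than in those of the control group. They were found by gene name among the 54532 genes of the deposited table, where each name occurs once. Because that same contrast chose them, their fold changes are given here as a description without a test. The macrophages came from mice that carried glioblastoma xenografts and were sorted as living leukocytes (CD45+, DAPI-) that carried CD11b and lacked Gr1. The control group holds 2 libraries (vehicle, per the protocol entries) and the treated group 2 libraries (MK-8931, also known as verubecestat and an inhibitor of the beta-secretase BACE1), and both sets of tumours came from hosts labelled only as GBM mice, with no age or inbred strain. The protocol entries speak of glioma stem cells treated for 3 days and of RNA taken from those cells, while the cell type entries name sorted macrophages, so the labels do not settle how the drug reached the cells. Whether each library is a different animal is also unstated, and every p-value below reflects only how these libraries vary, which may be technical.

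The 5 genes encode proteins of different kinds. Fam19a5 (Tafa5 in current nomenclature) encodes a small secreted protein of the TAFA family, whose members resemble chemokines and are best known from the brain. Npnt encodes nephronectin, an extracellular matrix protein of basement membranes that binds integrin alpha-8 beta-1 through an RGD sequence. AF529169 (Minar1) encodes a membrane protein that has been found with the NOTCH2 receptor and as a brake on mTOR signalling. Adarb1 encodes ADAR2, an enzyme that edits adenosine to inosine in double-stranded RNA and recodes neurotransmitter receptor transcripts. Plk2 encodes a polo-like kinase that is induced by serum, by neuronal activity and by p53.

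Each gene lies on its own chromosome, and all coordinates are GRCm38. Fam19a5 (ENSMUSG00000054863) spans chromosome 15 from 87544299 to 87759364 on the plus strand, with 5 exon blocks in 2 annotated transcripts. Npnt (ENSMUSG00000040998) spans chromosome 3 from 132881745 to 132950291 on the minus strand, with 15 exon blocks. AF529169 (ENSMUSG00000039313) lies on chromosome 9 from 89587216 to 89623125 on the minus strand, with 5 exon blocks. Adarb1 (ENSMUSG00000020262) lies on chromosome 10 from 77290726 to 77418270 on the minus strand, with 16 exon blocks and 13 annotated transcripts. Plk2 (ENSMUSG00000021701) is compact, at chromosome 13 from 110395046 to 110400844 on the plus strand, with 9 exon blocks. The counts are per gene, so they do not tell transcripts or start sites apart. Reads from an overlapping gene could hardly add to them: 4 of the 5 genes overlap no other gene of the table, and Npnt overlaps the small nuclear RNA gene Gm23196, which had at most 1 count in a library.

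The promoters of the 5 genes were compared because sequence was not used to choose them. RefSeq start sites on GRCm38.p6 were matched to all 5 genes through gene identifiers, and a window of 250 bases before to 50 bases after the start nearest to the table's gene start was read. The sequences below show the gene with the largest fold difference, the matrix gene, and Plk2, whose window is the one with a cAMP response element. Capitals mark matches, on either strand, to the motifs searched. These were the GC box with the letters GGGCGG, the TATA box with TATAAA, the box named CCAAT after its letters, the cAMP response element with TGACGTCA, the AP-1 site with TGANTCA, the RBPJ site with TGGGAA, the PU.1 core with GAGGAA, the E-box with CACGTG and the glucocorticoid response element (a palindrome with a gap of any bases), and adjoining capitals are overlapping matches.
Fam19a5, chr15:87544049-87544348, plus strand: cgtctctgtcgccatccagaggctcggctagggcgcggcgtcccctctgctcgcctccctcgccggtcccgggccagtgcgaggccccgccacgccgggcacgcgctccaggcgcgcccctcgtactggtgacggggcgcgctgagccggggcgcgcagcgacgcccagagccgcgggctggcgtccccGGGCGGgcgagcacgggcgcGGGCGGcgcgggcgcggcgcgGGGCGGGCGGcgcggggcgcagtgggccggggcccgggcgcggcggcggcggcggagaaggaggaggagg
Npnt, chr3:132950242-132950541, minus strand: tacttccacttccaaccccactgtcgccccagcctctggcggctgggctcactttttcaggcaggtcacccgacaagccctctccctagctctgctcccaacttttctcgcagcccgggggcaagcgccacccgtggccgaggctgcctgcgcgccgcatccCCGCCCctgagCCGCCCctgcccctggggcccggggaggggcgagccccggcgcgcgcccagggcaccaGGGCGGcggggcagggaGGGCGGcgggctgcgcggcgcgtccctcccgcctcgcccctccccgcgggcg
Plk2, chr13:110394794-110395093, plus strand: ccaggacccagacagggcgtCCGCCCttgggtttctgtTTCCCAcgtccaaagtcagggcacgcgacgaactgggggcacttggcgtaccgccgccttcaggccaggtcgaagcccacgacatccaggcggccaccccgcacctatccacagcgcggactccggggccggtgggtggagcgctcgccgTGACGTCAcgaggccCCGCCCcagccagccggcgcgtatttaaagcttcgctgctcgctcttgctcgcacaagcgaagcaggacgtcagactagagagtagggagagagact

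All 5 windows held GGGCGG, with 4 matches in Fam19a5, 4 in Npnt, 3 in Adarb1, 2 in Plk2 and 1 in AF529169. Of the 32851 promoter windows of the same length in the RefSeq table, 35.7% held it. That table also holds genes not expressed in these cells. Of the 13047 windows that belong to genes tested here 60.8% held it, with 73.5% of the tested genes matched to the table. The windows were rich in G and C, at 83.7% in Fam19a5, 76.7% in Npnt, 73.0% in Adarb1, 66.3% in Plk2 and 64.0% in AF529169, against a median of 52.7% over the table and 60.3% over the windows of tested genes. CpG dinucleotides numbered 56 in Fam19a5, 46 in Adarb1, 32 in Npnt, 31 in Plk2 and 15 in AF529169, against a median of 7 over the table and 20 over the windows of tested genes, so that AF529169 lay below the latter. The cAMP response element of Plk2 begins 62 bases before the start site, and 1.79% of all windows and 2.95% of those of tested genes hold that motif. The Plk2 window also held TGGGAA, found in 25.6% of windows. The AF529169 window held CCAAT (37.4% of windows) and GAGGAA (28.3%). None of these 5 windows matched the TATA box, the AP-1 site, the E-box or the glucocorticoid response element, which were found in 13.6%, 7.81%, 7.15% and 0.00913% of windows. RefSeq gives a second start for Fam19a5 and for Npnt. The window at the other Fam19a5 start (chr15:87624980-87625279, plus strand) held GGGCGG 4 times and an AP-1 match, and the other Npnt window (chr3:132949765-132950064, minus strand) held none of the motifs. A match describes letters and not binding.

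Library totals lay between 18257930 and 20179875 counts, and 13932 genes were tested. The 8 macrophage markers summed to 7932 and 9560 CPM (controls), then 7501 and 7572 CPM (MK-8931), where CPM are counts relative to the TMM-scaled library size. Of them 0 fell and 1 rose, Itgam, which encodes the sort antigen CD11b, at 220 and 180 CPM (controls), then 328 and 345 CPM (MK-8931), with an adjusted p = 0.0485 by edgeR's quasi-likelihood test. Microglial markers summed to 1635 and 1990 CPM (controls), then 1323 and 1511 CPM (MK-8931). Of the 6 tested 0 passed, 3 were lower at an unadjusted p under 0.05, and DESeq2 called 2 lower. Over all 13932 tested genes 592 were lower at that unadjusted p by edgeR's quasi-likelihood test, and DESeq2 called 95 lower. Oligodendrocyte precursor markers summed to 578 and 537, then 418 and 328 CPM, nearly all of it Cspg4, while Olig1, Olig2 and Gpr17 had no count. Astrocyte markers summed to 64.2 and 44.9, then 82.2 and 96.9 CPM, with Aqp4 at 0, and oligodendrocyte markers to 117 and 122, then 108 and 110 CPM, with Mog and Mobp at 0. Endothelial markers summed to 43.2 and 36.2, then 51.0 and 46.2 CPM. In these 4 lists 0 markers passed by edgeR's quasi-likelihood test, and DESeq2 called 1 astrocyte and 1 endothelial marker higher and 1 precursor marker lower. The 6 neuronal markers summed to at most 0.862 CPM, with Snap25 and Syt1 at 0, and the T, B and NK cell markers to at most 2.0 CPM. Neutrophil markers were higher with MK-8931. Of 10 listed, 7 were tested and 6 rose, 0 fell, with a summed level of 83.9 and 82.4 CPM (controls), then 459 and 787 CPM (MK-8931). Ly6g, the antigen of neutrophils in the Gr1 sort, had no count in 3 libraries and 0.761 CPM in MK-8931 2. The 7 pericyte and fibroblast markers summed to 667 and 301 CPM (controls), then 653 and 1028 CPM (MK-8931), and 0 of them passed. The part of these other cells in the results below was not tested. In bulk RNA, fewer cells of a type and less RNA per cell cannot be told apart.

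All 5 genes passed the filter on low counts, and all 5 were among the genes called lower by edgeR's quasi-likelihood test (Benjamini-Hochberg adjusted p under 0.05). That call covered 19 of 13932 genes, or 0.136%, and calls in either direction covered 0.998%. It is the contrast that chose the 5 genes, so nothing is read from this count. Ranked by log2 fold change among the 19, they stood at places 1 (Fam19a5), 2 (Npnt), 3 (AF529169), 4 (Adarb1) and 11 (Plk2). Among all 13932 tested genes, counted from the lowest value, their places were 20, 86, 95, 125 and 352 in the same order. The gene next after Adarb1 among the 19, and not one of the 5, was the lysozyme gene Lyz1 (log2 fold change −1.27). In each of the 5 genes both MK-8931 libraries were below both controls, which was so for 20.0% of all tested genes. The number called lower depended on the libraries, at 243 without control 1, 47 without control 2, 23 without MK-8931 1 and 10 without MK-8931 2.

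**Figure D1:**
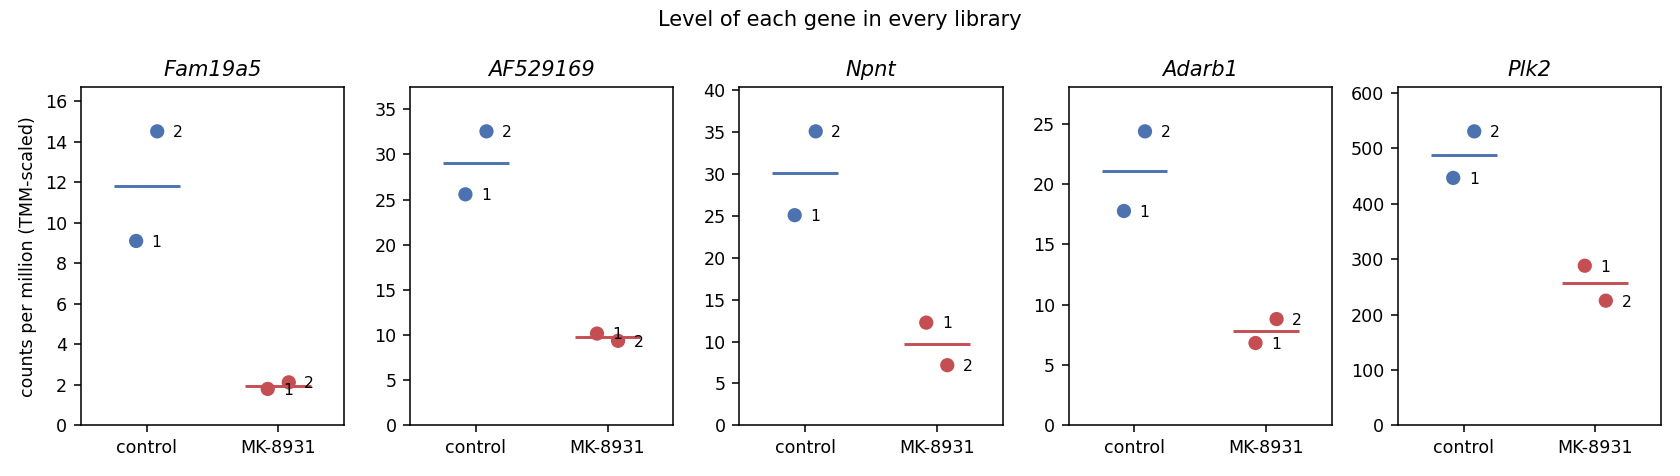
Level of each of the 5 genes in CPM (vertical axis, from 0, a different range in each panel) in the 2 control libraries (blue) and the 2 MK-8931 libraries (red), with the replicate number beside each point and a line at each group mean. In every panel both red points lie below both blue points, and control 2 is the highest library.

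Of the secreted proteins, Fam19a5 had the largest fold difference. It had 169 counts in control 1, 284 in control 2, 35 in MK-8931 1 and 39 in MK-8931 2. Scaled to library size these were 9.10, 14.5, 1.80 and 2.12 CPM. The groups were far apart relative to the spread within the treated group, while the controls differed from each other by a ratio of 1.59. The mean went from 11.8 ± 3.83 to 1.96 ± 0.230 CPM (SD, n = 2), which is 16.6% of the control level. The log2 fold change was −2.59 (SE 0.34). Across the 4 possible treated-to-control ratios the treated level was 12.4% to 23.3% of control.

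Npnt was counted 466 and 687 times among controls, then 239 and 132 times among treated libraries, or 25.1, 35.1, 12.3 and 7.18 CPM. Here the treated libraries differed most from each other, with MK-8931 2 at 0.585 times MK-8931 1. The groups did not overlap. The control mean was 30.1 ± 7.08 CPM and the treated mean 9.72 ± 3.59 CPM (SD, n = 2), 32.3% of control, with a log2 fold change of −1.63 (SE 0.28). Single ratios of treated to control ran from 20.4% to 48.9%.

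The membrane protein gene AF529169 had the tightest treated group of the 5 by ratio, with MK-8931 2 at 0.921 times MK-8931 1. The gene gave 475 and 637 counts (controls), then 198 and 172 (MK-8931), or 25.6, 32.5, 10.2 and 9.35 CPM. The control mean was 29.1 ± 4.93 CPM and the treated mean 9.75 ± 0.569 CPM (SD, n = 2), 33.6% of control. Its log2 fold change was −1.57 (SE 0.20), close to that of Npnt, and the treated level was 28.7% to 39.7% of control over the 4 ratios.

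Adarb1, the editing enzyme gene, gave 330 and 477 counts (controls), then 133 and 162 (MK-8931), or 17.8, 24.4, 6.82 and 8.81 CPM. The highest treated library was less than 50% of the lowest control, at 49.6%. The control mean was 21.1 ± 4.67 CPM and the treated mean 7.82 ± 1.40 CPM (SD, n = 2), 37.1% of control, with a log2 fold change of −1.43 (SE 0.25).

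The kinase gene Plk2 was the abundant one of the 5 and had the smallest fold difference. It gave 8297 and 10389 counts (controls), then 5618 and 4139 (MK-8931), or 447, 531, 288 and 225 CPM. The control mean was 489 ± 59.5 CPM and the treated mean 257 ± 44.6 CPM (SD, n = 2), 52.5% of control. Its log2 fold change was −0.93 (SE 0.16), and the treated level was 42.4% to 64.5% of control over the 4 ratios. At these counts the sampling error is small against the difference between libraries of a group.

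**Figure D2:**
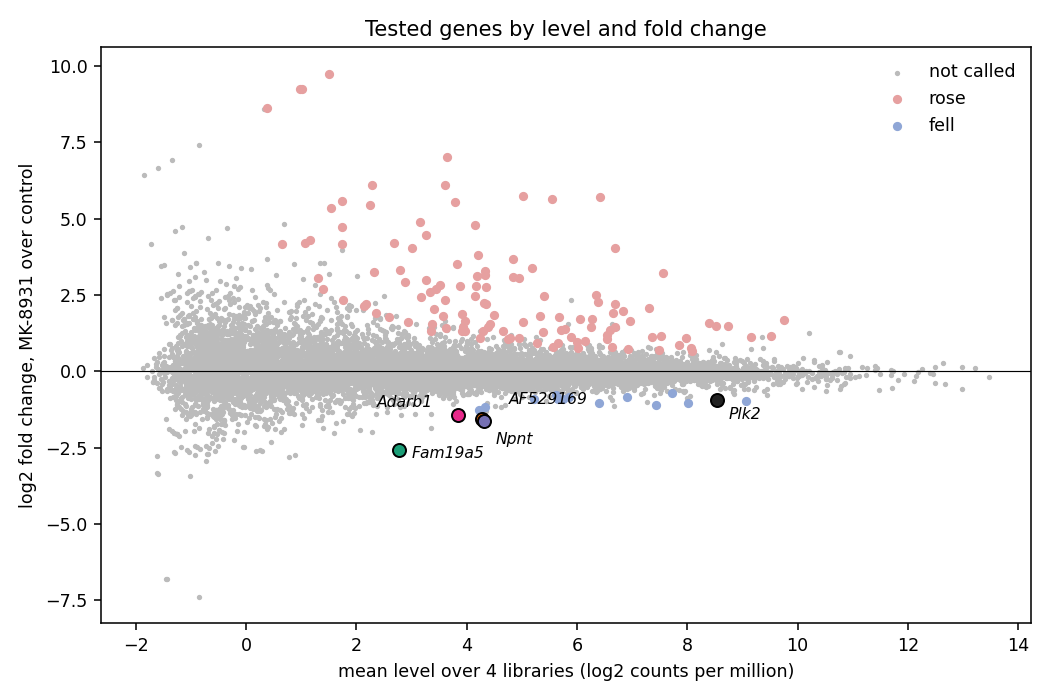
Mean level over the 4 libraries (horizontal, log2 CPM) against the fitted log2 fold change of MK-8931 over control (vertical) for 13932 tested genes, grey where not called, red where they rose and blue where they fell. The 5 genes (large points) lie between −2.59 and −0.93, with Fam19a5 at the lowest level of the 5 and Plk2 at the highest.

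Levels of different genes were compared on the deposited FPKM scale, which corrects for gene length. In the controls the order was Plk2 (98.9 and 119 FPKM), Npnt (4.96 and 7.00), Fam19a5 (3.11 and 5.00), AF529169 (3.50 and 4.49) and Adarb1 (1.57 and 2.17). The ranges of Npnt and Fam19a5 touched and that of AF529169 lay within that of Fam19a5, so these neighbours did not differ beyond their spread. Plk2 was higher than 96.9% of tested genes by its control mean, Npnt higher than 56.1%, Fam19a5 than 46.9%, AF529169 than 46.7% and Adarb1 than 32.1%. With MK-8931 the order changed. Plk2 stood at 63.7 and 49.7 FPKM, Npnt at 2.42 and 1.42, AF529169 at 1.39 and 1.28, Adarb1 at 0.601 and 0.775 and Fam19a5 at 0.613 and 0.723. Fam19a5, above Adarb1 in both controls, lay within its range in the treated libraries.

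The controls differed in the same direction for these genes. Control 2 was above control 1 for all 5 of them, while 48.7% of all tested genes were higher in control 2. These control values also entered the contrast that chose the 5 genes. The direction was not particular to them, since that 48.7% of tested genes shared it. The genes of likest pattern named below were also higher in control 2, among them Lyz1 (30.8 against 21.9 CPM). They were ranked in part on their control values, so that direction was largely fixed by the ranking and nothing is read from it. Among the 5 genes the log2 difference of control 2 over control 1 was 0.67 for Fam19a5, 0.48 for Npnt, 0.46 for Adarb1, 0.35 for AF529169 and 0.25 for Plk2. These values were above those of 94.2%, 89.1%, 87.9%, 82.5% and 75.8% of tested genes in the same order. Between the treated libraries there was no common direction: MK-8931 2 was higher for Fam19a5 (0.24) and Adarb1 (0.37) and lower for AF529169 (−0.12), Plk2 (−0.36) and Npnt (−0.77). The difference between the controls enters the fold changes. Without control 2 the log2 fold change of Fam19a5 was −2.21, and without control 1 it was −2.90. Summed microglial markers were also higher in control 2 (1990 against 1635 CPM), as were the macrophage markers (9560 against 7932 CPM), while pericyte and fibroblast markers were lower (301 against 667 CPM). Their part in these differences was not tested.

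**Figure D3:**
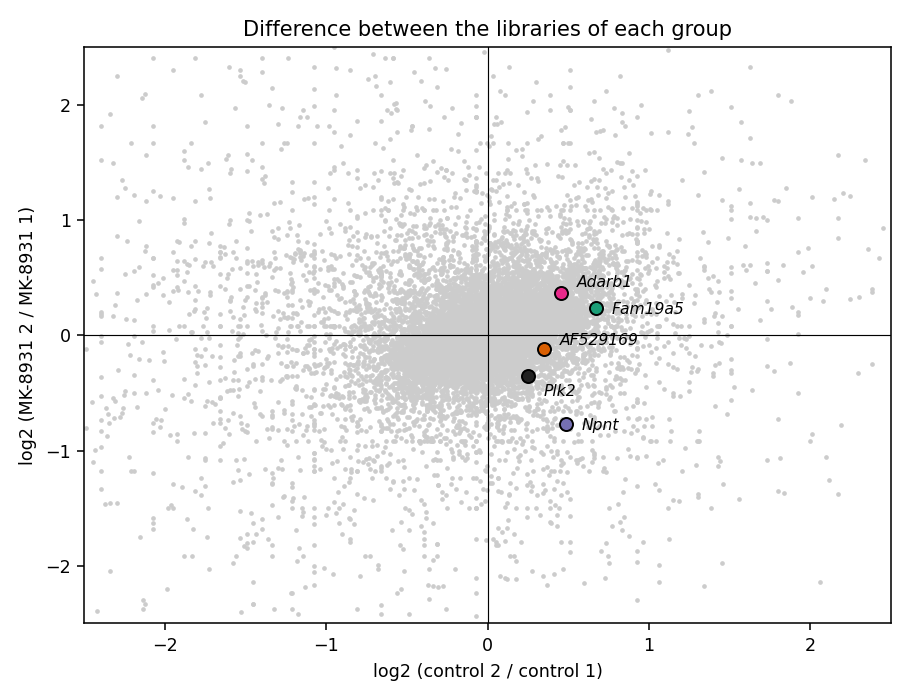
Log2 ratio of control 2 to control 1 (horizontal) against log2 ratio of MK-8931 2 to MK-8931 1 (vertical) for all tested genes within 2.5 log2 units (grey) and the 5 genes (large points). The 5 genes lie to the right of 0, from 0.25 to 0.67, and on both sides of 0 vertically, from −0.77 to 0.37.

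Genes of the same families and pathways were taken from 9 lists drawn up for the 5 genes, to see whether relatives and partners moved too. Of the 120 genes that rose over the whole table (0.861% of those tested) 1 was in these lists, and 0 of the 19 that fell (0.136%). The 19 include the 5 genes themselves, which no list held. With so few falls over the table, a count of 0 says little about the relatives. At an unadjusted p under 0.05 by edgeR's quasi-likelihood test, 910 of all 13932 tested genes were higher and 592 lower. DESeq2 called 262 of them higher and 95 lower, and limma-voom 124 higher and 30 lower. The median log2 fold change of all tested genes was 0.00 to 2 decimals (−0.00297), and 50.4% of them were below 0. In these lists a value after ± is the SD of the 2 libraries of a group.

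In the TAFA family, Fam19a5 had little company. Fam19a1 and Fam19a4 had no count in any library, and Fam19a3 had at most 9 counts. Fam19a2 was at 7.82 ± 0.364 CPM (control mean), then 5.81 ± 0.389 CPM (MK-8931 mean), at a fitted log2 ratio of −0.43 (SE 0.26, adjusted p = 0.657 by edgeR's quasi-likelihood test), or 1.66 and 1.23 FPKM. S1pr2, a sphingosine phosphate receptor proposed to bind the Fam19a5 protein, was expressed in all libraries, at 59.9, 61.6, 67.7 and 76.0 CPM (log2 fold change 0.24, SE 0.14, adjusted p = 0.619). Fpr1, a formyl peptide receptor proposed for the related Fam19a4 protein and also a receptor of neutrophils, rose. It stood at 4.25 and 3.88 CPM (controls), then 13.3 and 27.4 CPM (MK-8931), for a fitted log2 ratio of 2.32 (SE 0.35, adjusted p = 0.0207 by edgeR's quasi-likelihood test). That value was 1.70 without MK-8931 2, and the call was lost with limma-voom (adjusted p = 0.0537). The rise stood beside that of 6 of 7 tested neutrophil markers.

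For nephronectin, neither the integrins nor other RGD ligands passed the test. Of 10 tested genes 0 rose and 0 fell by edgeR's quasi-likelihood test, 1 was higher and 0 lower at an unadjusted p under 0.05, and DESeq2 and limma-voom called 0. Without control 1 there were 1 higher and 1 lower call, and without control 2 there was 1 lower. The median log2 fold change was −0.16, and 9 of the 10 were below 0. Itga8, the alpha chain of its main receptor, was low, at 3.34 and 1.64 CPM (controls), then 5.95 and 4.19 CPM (MK-8931), at a fitted log2 ratio of 1.03 (SE 0.43, adjusted p = 0.436). Its beta chain Itgb1 was abundant, at 945, 977, 862 and 877 CPM (log2 fold change −0.15, adjusted p = 0.755). Spp1, the osteopontin gene and the most abundant of the list, was at 6513 ± 1572 CPM (control mean), then 4979 ± 781 CPM (MK-8931 mean), with adjusted p = 0.521. Mfge8, a bridging protein for apoptotic cells, had a fitted log2 ratio of −0.26 (adjusted p = 0.629).

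Basement membrane genes spread widely around 0. Of 18 tested, 0 rose and 0 fell by edgeR's quasi-likelihood test, 3 were higher and 3 lower at an unadjusted p under 0.05, limma-voom called 0, and DESeq2 called 2 higher and 1 lower. Lamb2, the laminin beta-2 chain, was at 71.9 ± 9.17 CPM (control mean), then 43.1 ± 1.92 CPM (MK-8931 mean), at a fitted log2 ratio of −0.74 (SE 0.15, adjusted p = 0.0676). Lama5, the laminin alpha-5 chain, had a fitted log2 ratio of −1.03 (SE 0.32, adjusted p = 0.244). In the other direction, Col18a1, which encodes the precursor of endostatin, was at 11.1 ± 2.26 CPM (control mean), then 22.8 ± 3.29 CPM (MK-8931 mean), at a fitted log2 ratio of 1.04 (SE 0.22, adjusted p = 0.0773). Lamb3, a laminin chain of epithelia, was near the floor of detection in controls at 0.445 CPM (log2 fold change 3.02, SE 0.63, adjusted p = 0.0717). Lamc1, the most abundant of the list, had 168 ± 17.6 and 184 ± 17.3 CPM (adjusted p = 0.821). Without control 1 edgeR called 3 higher and 1 lower, and without control 2 or without MK-8931 1 it called 1 higher. The list median was 0.02, and it ran from −0.28 without control 2 to 0.29 without control 1.

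**Figure D4:**
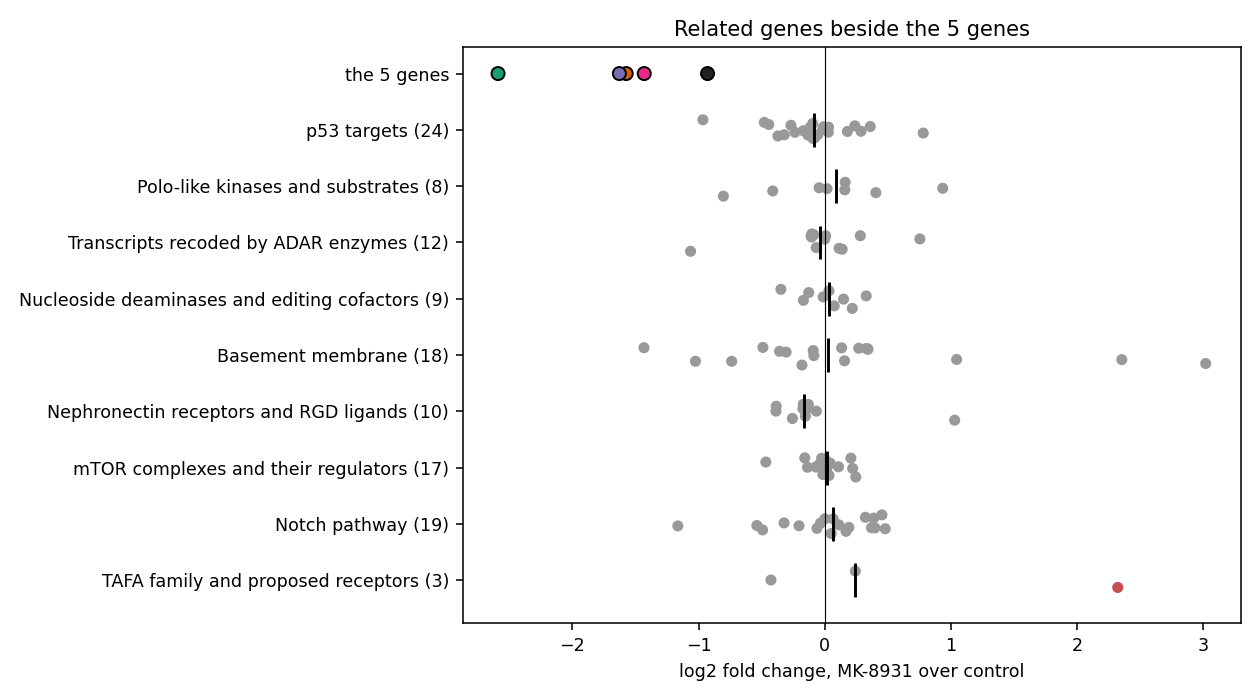
Fitted log2 fold change of MK-8931 over control for each tested gene of the 9 related lists (grey, or red where it rose), with a black line at each list's median and the 5 genes in the top row. The list medians lie between −0.16 and 0.24, and the red point is Fpr1 at 2.32.

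For AF529169, the Notch and mTOR genes were examined. In the Notch pathway 0 of 19 tested genes rose or fell by edgeR's quasi-likelihood test, 3 were higher and 1 lower at an unadjusted p under 0.05, and DESeq2 and limma-voom called 0. Without control 1 there were 2 higher calls and 1 lower. The median log2 fold change was 0.07, or 0.21 without control 1. Notch2, the receptor found with the protein, was at 152 and 97.3 CPM (controls), then 175 and 147 CPM (MK-8931), so the groups overlapped (log2 fold change 0.37, SE 0.20, adjusted p = 0.599). The fringe enzymes, which modify Notch receptors, stood on both sides of 0, with Lfng at 0.48 (SE 0.13, adjusted p = 0.180) and Mfng at −0.49 (SE 0.19, adjusted p = 0.369). Numb, a Notch inhibitor, had a fitted log2 ratio of 0.39 (adjusted p = 0.356), and Hey1, a Notch target at 1.79 ± 1.16 CPM in controls, −1.17 (adjusted p = 0.657). In the list of mTOR complexes and their regulators 0 of 17 genes passed by edgeR's quasi-likelihood test, 0 were past an unadjusted p under 0.05, and DESeq2 and limma-voom called 0. The 17 values lay between −0.47 (Tbc1d7, adjusted p = 0.651) and 0.25 (Rps6kb2, adjusted p = 0.715), with a median of 0.01. Deptor, the mTOR inhibitor, was at 24.7 and 19.7 CPM (controls), then 26.0 and 21.9 CPM (MK-8931).

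Among RNA deaminases, Adarb1 was at a lower level than Adar in every library on the FPKM scale. Adar, which encodes ADAR1, was at 8.01 FPKM in controls and 9.99 FPKM with MK-8931, against 1.87 and 0.688 FPKM for Adarb1. Adar had a fitted log2 ratio of 0.33 (SE 0.17, adjusted p = 0.580 by edgeR's quasi-likelihood test), with 75.3 and 55.0 CPM (controls), then 85.9 and 77.6 CPM (MK-8931). Adarb2, Adad1, Adad2 and Adat3 had no count. The cytidine deaminase Apobec1 was the most abundant of the list, at 187 FPKM in controls and 195 FPKM with MK-8931 (adjusted p = 0.905). Of 9 tested deaminases and cofactors 0 passed, 0 were past an unadjusted p under 0.05, and DESeq2 and limma-voom called 0. Wwp2, which lowers the ADAR2 protein, had a log2 ratio of −0.01 (adjusted p = 0.988 by edgeR's quasi-likelihood test). Of the transcripts known to be recoded by ADAR enzymes 12 of 21 were tested and 0 passed, also at an unadjusted p under 0.05 and with DESeq2 and limma-voom (median −0.03). The neuronal targets of ADAR2 were nearly absent, with Gria2 at 1 count in control 1 and 0 elsewhere. Flna, the filamin A gene and a target in non-neural tissue, was abundant at 1635 ± 176 CPM (control mean), then 1643 ± 116 CPM (MK-8931 mean). Editing itself is not measured by gene counts.

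Of the polo-like kinases, Plk2 was the most abundant in the controls, at 98.9 and 119 FPKM against 54.8 and 51.7 FPKM for Plk3. With MK-8931 the ranges overlapped, at 63.7 and 49.7 FPKM for Plk2 and 61.6 and 56.6 FPKM for Plk3. Plk3, a stress-responsive kinase, had a fitted log2 ratio of 0.16 (SE 0.13, adjusted p = 0.752), the mitotic kinase Plk1 0.02 (SE 0.18, adjusted p = 0.989) and the centriole kinase Plk4 0.16 (SE 0.18, adjusted p = 0.832), all by edgeR's quasi-likelihood test. Plk5 had no count. Of 8 tested kinases and substrates 0 passed, 0 were higher and 1 lower at an unadjusted p under 0.05, and DESeq2 and limma-voom called 0. Sipa1l1, a substrate of Plk2 at synapses, had a value of 0.40 (SE 0.22, adjusted p = 0.588).

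Plk2 is also a p53 target, and the other targets did not pass. Of 24 tested 0 rose and 0 fell by edgeR's quasi-likelihood test, 1 was higher and 3 lower at an unadjusted p under 0.05, and DESeq2 and limma-voom called 0. The median was −0.09, with 17 of 24 below 0. Cdkn1a, the cell cycle inhibitor p21, was at 255 and 257 CPM (controls), then 250 and 233 CPM (MK-8931), at a fitted log2 ratio of −0.08 (adjusted p = 0.886). Phlda3, an inhibitor of AKT, was at 11.9 ± 0.782 and 6.10 ± 0.0851 CPM (log2 fold change −0.97, SE 0.24, adjusted p = 0.126). Gdf15, a stress cytokine and the most abundant of the list, was at 204 ± 18.2 and 150 ± 29.9 CPM (adjusted p = 0.332), and Fas, the death receptor, had a fitted log2 ratio of 0.78 (adjusted p = 0.322).

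Genes near the 5 were examined as well, a set chosen after the values of the 5 were known. Within 250 kb there were 15 tested neighbours, of which 0 rose and 0 fell by edgeR's quasi-likelihood test. Fam19a5 had no tested neighbour. The 8 neighbours of Adarb1 lay between −0.43 (Ube2g2, a ubiquitin-conjugating enzyme) and 1.04 (Col18a1), and included the leukocyte integrin chain Itgb2 at 0.33 (adjusted p = 0.363). The 4 neighbours of Npnt lay between −0.22 and 0.21, the 2 of AF529169 at −0.18 and −0.02, and Gapt, the neighbour of Plk2, at 0.66 (adjusted p = 0.469).

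The genes whose pattern over the 4 libraries was most like that of each gene were ranked by Euclidean distance between centred log2 CPM values, among 9623 genes with a mean of at least 5 CPM. The 5 genes themselves, predicted loci and pseudogenes were left out of these candidates. As the pattern includes the contrast, this is a description over 4 libraries. The values were centred but not scaled, so the distance depends largely on the size of the fold change. Plk2 had the closest matches, with Igf1, the growth factor gene, at a distance of 0.080 log2 units (114, 136, 78.7 and 59.2 CPM in control 1, control 2, MK-8931 1 and MK-8931 2). It was followed by the sulfotransferase gene Chst1 at 0.091 and the epoxide hydrolase gene Ephx1 at 0.093. For Adarb1 the nearest was S100b, a calcium-binding protein gene (distance 0.171, at 5.87, 8.94, 2.62 and 3.04 CPM), followed by Lyz1 (0.303) and Fkbp14 (0.326). For AF529169 they were Ecscr (0.311), Lyz1 (0.346) and S100b (0.371). For Npnt they were the activation antigen Cd69 (0.381, at 24.6, 33.7, 14.2 and 9.57 CPM), Sardh (0.409) and Ecscr (0.564). Fam19a5 had no close match among these candidates: S100b at 1.17, Ecscr at 1.17 and Lyz1 at 1.27 were nearest. Among the 5 genes themselves, AF529169 and Adarb1 were closest (0.377) and Fam19a5 and Plk2 farthest apart (1.64). Fam19a5 lay nearer to AF529169 (0.997), Adarb1 (1.10) and Npnt (1.11) than to S100b. Npnt lay nearer to AF529169 (0.476) than to Ecscr. Of the likest genes outside the 5, Lyz1 was called lower, and the others were not called.

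The fold changes of the 5 genes were recomputed under other tests, scalings, filters and library choices. All 13 alternatives for each gene gave a value below 0. That sign was all but fixed beforehand, because both MK-8931 libraries lay below both controls in each gene. Leaving out each library in turn gave −2.90 to −2.21 for Fam19a5, −2.08 to −1.31 for Npnt, −1.75 to −1.39 for AF529169, −1.65 to −1.19 for Adarb1 and −1.13 to −0.78 for Plk2. The ranges of Npnt, AF529169 and Adarb1 overlap, so their order by fold change depends on the library left out.

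**Figure D5:**
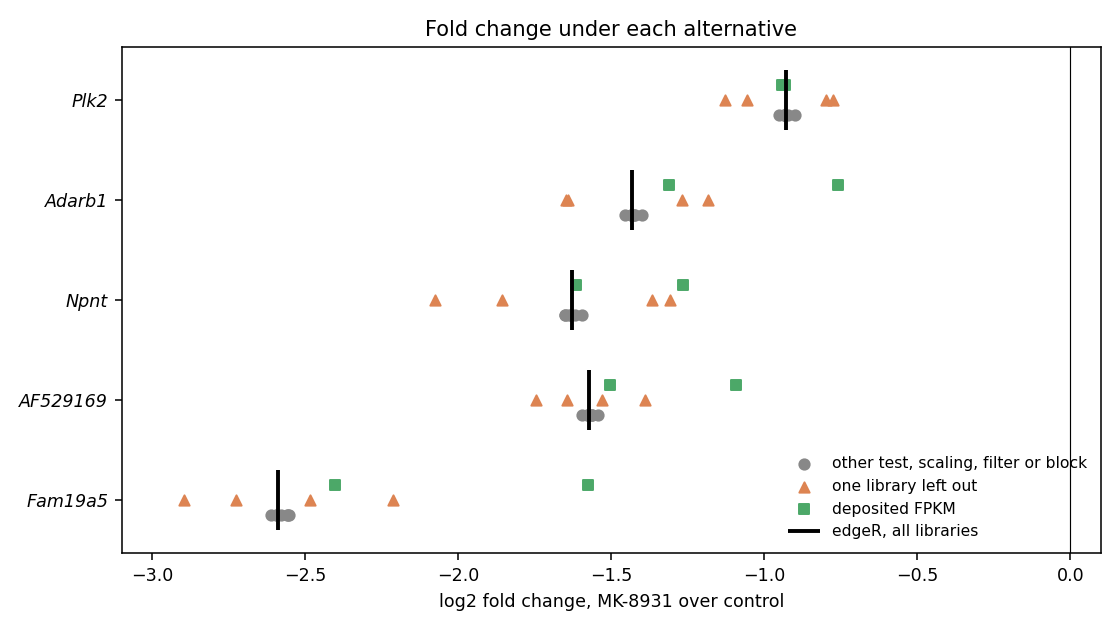
Log2 fold change of MK-8931 over control (horizontal) for each of the 5 genes with all libraries (black bar), with other tests, scalings, filters or the replicate block (grey circles), with 1 library left out (orange triangles) and from deposited FPKM with a pseudocount of 0.1 or 1 (green squares). All points lie below 0, and the green squares nearest 0 are those with the pseudocount of 1, at −1.58 for Fam19a5 and −0.76 for Adarb1.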

How the data were processed

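RNA sequencing libraries of sorted tumour-associated macrophages (2 control, 2 MK-8931, grouped by their titles) were analysed from a table of 54532 mouse genes. The deposited counts are whole numbers of reads per gene. The deposited FPKM values equalled count over gene length times a constant per library within 1% for 100% of values above 0. They served for levels between genes and for an alternative estimate of the fold changes. Per the submitters' processing notes CASAVA was used with the build mm9, but 98.3% of 54409 shared gene identifiers have the coordinates of GRCm38 (GENCODE M21). For the aligner, the counter and the use of strand nothing is stated (not given in the sources used here). Another 4 columns of values per library were not used.

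Counts were tested in R 4.3.3 with edgeR 4.0.16 (filterByExpr with a minimum count of 10, TMM, glmQLFit with robust dispersions, glmQLFTest, two-sided, Benjamini-Hochberg over 13932 genes, threshold 0.05). The SE is the absolute log2 fold change over the square root of F. Alternatives used DESeq2 1.42.0, limma-voom (limma 3.58.1), other scalings and filters, a replicate block, FPKM and each library left out. Within each group the 2 libraries were not copies of each other (chi-square over its degrees of freedom was 19.6 between the controls and 12.5 between the treated libraries). The 5 genes, the lists and the rule for named genes (of each list the genes past the threshold, else the 2 of smallest p in each direction, and the most abundant) were chosen with earlier results of these data known. Other genes named in the text, such as Notch2, Deptor, Itgb1 and Cdkn1a, were picked for their role after their values were seen. Some genes that the rule names are not reported here.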

Additional observations from a re-analysis of the deposited data

How the results depend on the processing

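All 13 alternatives kept the sign of each of the 5 genes. With both MK-8931 libraries below both controls in each, the sign could hardly have changed, so only the sizes are informative. The values moved by more than the spread between replicates only with deposited FPKM and a pseudocount of 1, to −1.58 for Fam19a5, −1.09 for AF529169 and −0.76 for Adarb1, since that pseudocount is close to the levels themselves. That spread comes from the differences between the libraries of each group. Leaving out 1 library could therefore hardly exceed it, so nothing is read from those alternatives staying within it. The number of genes called lower (19) was 95 with DESeq2, 30 with limma-voom, 176 with no filter on low counts, 30 with a minimum count of 50, and 10 to 243 with 1 library left out. The number called higher (120) was 262 with DESeq2, 366 with no filter, and 85 to 520 with 1 library left out. The cause was not tested. The replicate numbers in the titles are not stated to pair libraries. Same-numbered libraries deviated together only weakly (r = 0.197 across 13932 genes, which are not independent). With the replicate number as a block 275 genes were called lower and 468 higher. Among the related lists the block gave 2 higher calls in the Notch list, 1 lower in the nephronectin list, 2 higher and 1 lower in the basement membrane list and 2 lower among p53 targets. With no filter the basement membrane list had 2 higher and 1 lower and the p53 list 1 lower. With 2 libraries a group, few degrees of freedom limit each estimate of spread. A level of 3 counts, the limit that a count of 0 allows, was 0.153 to 0.163 CPM, and covers counting error only.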
